A study of Mus musculus with 11 samples.

Results

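The antibody genes are described here through the 56 probe sets of the array whose gene symbols all belong to an immunoglobulin heavy, kappa or lambda locus or to Jchain, out of 22690 probe sets in all, 64 of which are array controls. They were chosen by symbol, by a rule that uses no values but was set with earlier results of these data known: 23 read heavy chain genes, 29 read kappa light chain genes, 3 read lambda light chain genes and 1 reads the J chain. Together they carry 29 symbols, and 13 of the 56 carry more than 1 symbol. The arrays came from sympathetic ganglia of male C57BL mice aged 78 weeks, kept on normal chow, with 6 arrays from apoE-/- animals (called Apoe-deficient below) and 5 from wild-type animals. Apolipoprotein E is a lipid carrier of the blood, and mice without it develop atherosclerosis with age; the labels name no other allele and no agent in either group. Ganglia had been frozen fresh and cut out by laser capture, and their total RNA was biotin-labelled for the array. The series concerns the exchange between the atherosclerotic aorta and peripheral nerves.

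An antibody pairs heavy chains with light chains of the kappa or lambda type, and each chain joins a variable segment, which differs between B cell clones, to a constant region. The heavy chain constant region sets the isotype: Ighm gives IgM, the first isotype a B cell makes, Igha gives IgA, the antibody of mucosal surfaces, and Ighg3 gives one of the IgG subclasses. Plasma cells, the secreting end stage of the B lineage, devote much of their mRNA to these transcripts, and the J chain, which they also make, links IgM and IgA units into polymers.

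The J chain gene lies on chromosome 5, apart from the heavy chain locus on chromosome 12, the kappa locus on chromosome 6 and the lambda locus on chromosome 16, yet its transcript is made in the same cells. Its promoter is shown because Jchain was the 1 symbol of the 29 that matched the RefSeq promoter table of GRCm38.p6. The 250 bases before its start site lie at chr5:88527898-88528147 on the minus strand and are written 5′ to 3′.
Jchain: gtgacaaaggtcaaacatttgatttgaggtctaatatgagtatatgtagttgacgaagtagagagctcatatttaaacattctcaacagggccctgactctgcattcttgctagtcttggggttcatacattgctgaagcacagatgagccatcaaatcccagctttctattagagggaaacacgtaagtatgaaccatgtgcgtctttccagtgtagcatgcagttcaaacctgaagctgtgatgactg
The octamer ATGCAAAT, the element that antibody gene promoters share, was searched on both strands and had 0 matches in this window, so no base is in capitals. It was present in 526 of 32851 promoter windows of the same length (1.6%). The missing match says only that these letters are not in these bases.

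The deposited values are probe set signals in arbitrary units, with a median of 163 to 188.6 per array. Differences are Apoe-deficient minus wild-type on the log2(signal + 16) scale after quantile normalisation, and adjusted p-values come from limma with Benjamini-Hochberg adjustment over all probe sets fitted. The labels do not tie arrays to animals, so a p-value here weighs a difference against the scatter of the samples alone, part of which may be technical. In whole tissue, fewer cells of a type and less RNA per cell cannot be told apart. The labelled tissue showed its defining markers: Th and Dbh, enzymes of noradrenaline synthesis, gave signals of 7993.0 to 18660.1 in every array. Apoe itself gave 7.2 to 268.2 in the Apoe-deficient arrays and 11830.3 to 19649.2 in the wild-type arrays (difference -6.75, SE 0.45, limma adjusted p = 4.39e-06). Added hybridisation controls, which check the staining and not the tissue, gave a low level in Apoe-deficient replicates 2, 3 and 4 and a high level in replicates 1 and 6, while wild-type arrays had a high level in replicates 1 and 2; the other 4 arrays were between. The array of wild-type replicate 4 stood apart from the other wild-type arrays in many antibody probe sets, and many of the results that rest on it are given with and without it.

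Antibody transcripts of all 3 chain types and the J chain were higher in the Apoe-deficient ganglia. Of the 56 probe sets, 20 passed the filter on low values (above a signal of about 110 in at least 5 arrays), and 11 of these 20 rose in the Apoe-deficient arrays at a limma adjusted p under 0.05, with 0 lower. Among all 13863 probe sets past the filter, 0.931% rose and 0.418% fell at that adjusted threshold. At an unadjusted limma p under 0.05, 15 of the 20 were higher and 0 lower. The share of all probe sets at that unadjusted p was not counted. Of the 20, 3 had no wild-type array above the filter's level, so these passed through the Apoe-deficient arrays alone, and 2 of the 3 are among the 11. Others had too few wild-type arrays above it to pass without the Apoe-deficient arrays. Among the 11 these were Jchain (3 wild-type arrays), Igkv8-30 1452463_x_at (4) and Igkv9-120 1460423_x_at (1). The filter thus favours probe sets that are high in the Apoe-deficient arrays.

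Without the filter all 56 probe sets can be counted. At a limma adjusted p under 0.05, 10 rose and 0 fell, beside 0.526% of all 22626 probe sets that rose. At an unadjusted limma p under 0.05, 30 were higher and 0 lower, again without a count over all probe sets. The 10 were 2 heavy, 6 kappa and 1 lambda probe set and the J chain. The differences of the 56 ran from -0.58 to 7.08 with a median of 1.37, and 51 lay above 0, whereas the median over all probe sets was -0.02. The median was 0.83 for the heavy chain, 1.42 for kappa and 3.79 for the 3 lambda probe sets. In 7 of the 56 (12.5%) every Apoe-deficient array exceeded every wild-type array in deposited signal, which held for 1.15% of all probe sets. Without wild-type replicate 4, a choice made after seeing the data, this count was 16 of the 56, beside 2.04% of all probe sets.

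The arrays also differed in how many of the 56 they showed above the filter's level. The 6 Apoe-deficient arrays had 23, 22, 28, 23, 33 and 38 of the 56 above it. The 5 wild-type arrays had 10, 16, 11, 18 and 16. The groups did not overlap in this count, and Apoe-deficient replicates 5 and 6 had the most. The level is the 40th percentile over all probe sets. After quantile normalisation the same share of all probe sets therefore exceeded it on every array. The share of the 56 was below that general share on every array except Apoe-deficient replicate 6. Lambda probe sets exceeded the level in 1 to 3 cases on each Apoe-deficient array and in 0 cases on each wild-type array.

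**Figure D1:**
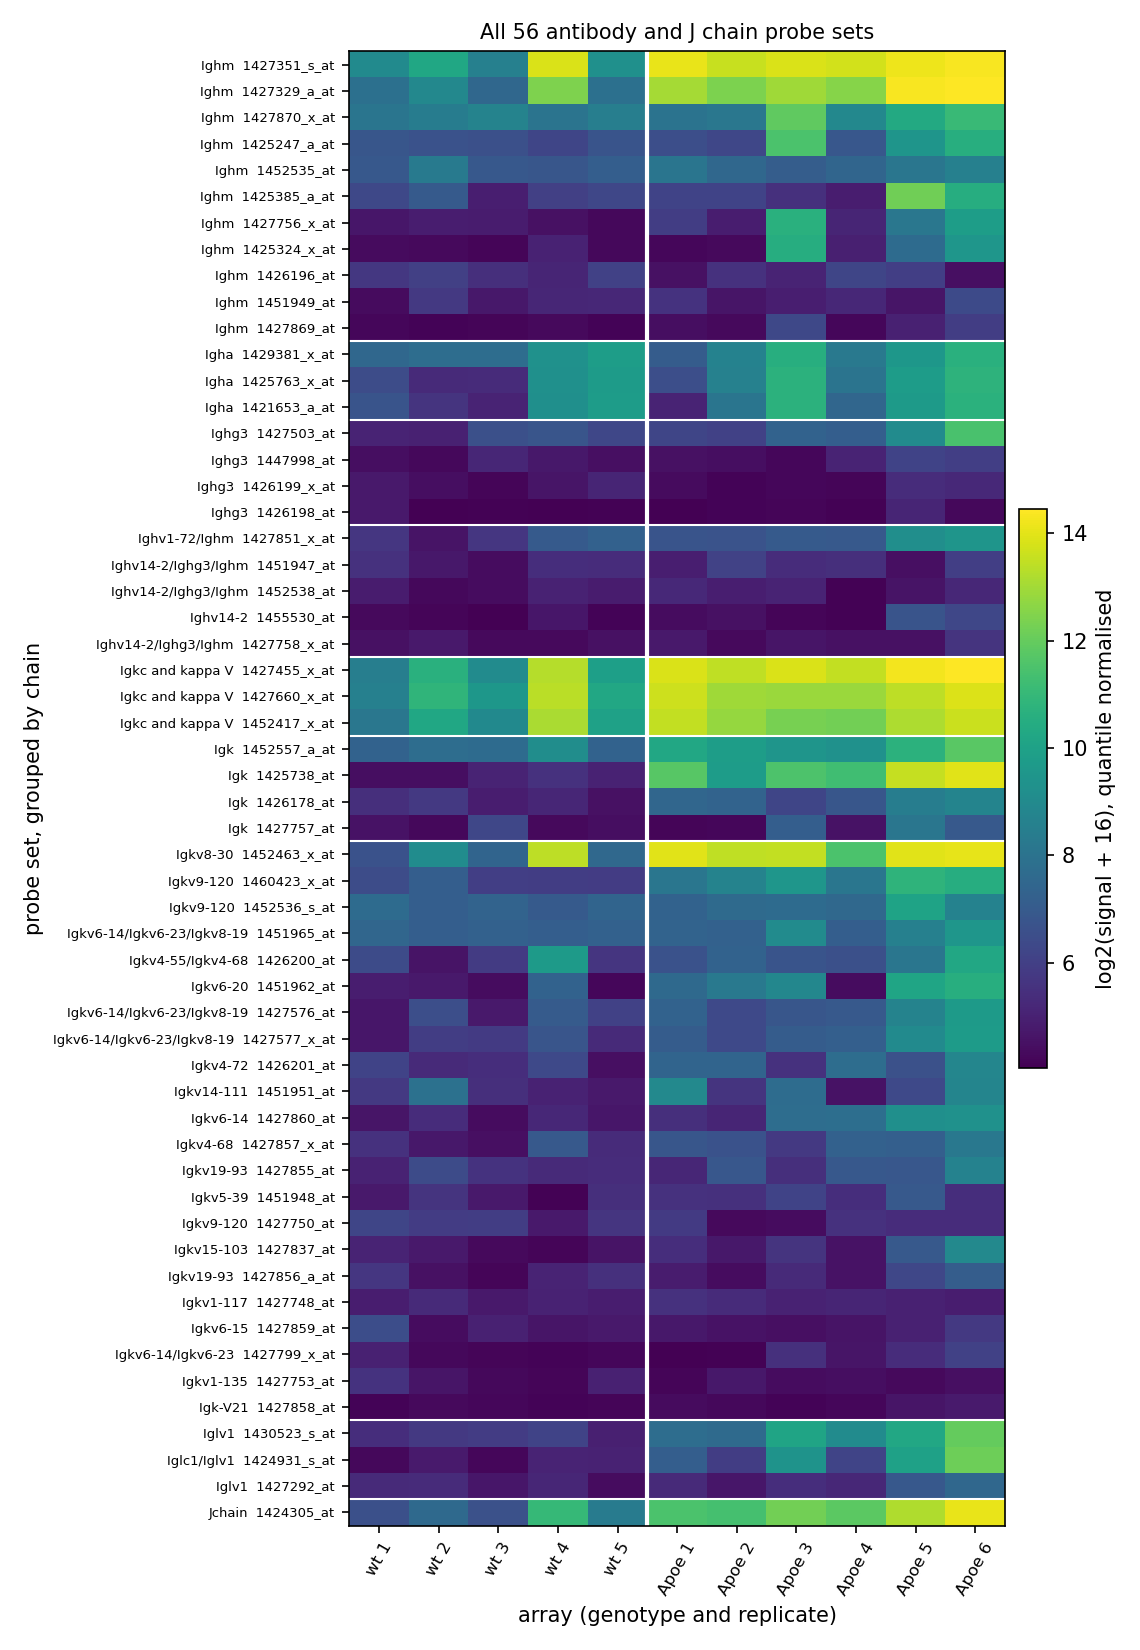
Every antibody and J chain probe set (56 lines, grouped by chain and subclass) against array (5 wild-type and 6 Apoe-deficient columns), coloured by quantile-normalised log2(signal + 16). The 2 top Ighm lines (1427351_s_at and 1427329_a_at) and the Igkc and Igkv8-30 lines are bright in all Apoe-deficient arrays and in wild-type replicate 4, while the Igk 1425738_at and Iglv1 1430523_s_at lines are dark in every wild-type array.

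The heavy chain of IgM was read by 11 probe sets, of which 4 passed the filter and 2 rose. For Ighm 1427351_s_at, the Apoe-deficient signal ran from 9125.3 through a median of 14350 to 37028.6, and the wild-type replicates 1 to 5 gave 510.3, 1178.7, 371.7, 14603.6 and 610.4. The 4 wild-type arrays other than replicate 4 lay far below every Apoe-deficient array, and replicate 4 lay among the latter, so the groups overlapped through it. The difference was 3.76 (SE 0.69, limma adjusted p = 0.0142), and 4.67 without wild-type replicate 4 (adjusted p = 1.16e-06). This call held in 10 of the 11 fits that left out 1 array, the exception being the fit without wild-type replicate 1, where the difference was 3.45. It was also lost with a block for the hybridisation control level (4.16, limma adjusted p = 0.101).

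Ighm 1427329_a_at also rose. Its Apoe-deficient signal ran from 4982.2 through 8566 to 42877.6, and the wild-type replicates gave 228.2, 453.7, 172.8, 5784.1 and 229.9. Wild-type replicate 4 again fell inside the Apoe-deficient range, and no other wild-type array did. The difference was 4.35 (SE 0.72, limma adjusted p = 0.00826), it was 5.22 without wild-type replicate 4, and it passed the threshold in 11 of 11 fits without 1 array. The other 2 Ighm probe sets past the filter did not pass the threshold: 1427870_x_at differed by 1.4 (SE 0.59, limma adjusted p = 0.218) and 1452535_at by 0.58 (SE 0.30, adjusted p = 0.295).

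Several probe sets annotated to Ighm were high in some Apoe-deficient arrays and not in others. Ighm 1427756_x_at gave 12.0 to 1648.0 in the Apoe-deficient arrays with a median of 158, and 11.6, 14.3, 14.4, 5.9 and 3.9 in the wild-type arrays. Its high arrays were Apoe-deficient replicates 3 (1648.0), 6 (882.8) and 5 (275.4), and the other 3 were at 12.0 to 40.5, which overlaps the wild-type arrays. The probe sets 1425247_a_at, 1425324_x_at and 1427870_x_at had the same 3 arrays on top. Ighm 1425385_a_at, in contrast, was high in Apoe-deficient replicates 5 (4654.6) and 6 (1406.5) and at 24.5 in replicate 3. The remaining Ighm probe sets, 1426196_at, 1451949_at and 1427869_at, stayed between 2.2 and 75.6 on all arrays. The platform annotation does not say which segment of the heavy chain transcript each of these probe sets reads.

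IgA was read by 3 Igha probe sets, all past the filter, and none passed the threshold. Igha 1425763_x_at gave 71.7 to 1772.7 in the Apoe-deficient arrays with a median of 622, and 78.0, 24.2, 26.7, 592.4 and 836.4 in the wild-type arrays. Wild-type replicates 4 and 5 were as high as the middle of the Apoe-deficient arrays, and Apoe-deficient replicate 1 lay within the range of the 3 low wild-type arrays, so the groups overlapped. The difference was 1.85 (SE 0.91, limma adjusted p = 0.279), and 2.36 without wild-type replicate 4 (limma adjusted p = 0.159). Igha 1421653_a_at differed by 1.34 (SE 1.04, adjusted p = 0.478) and Igha 1429381_x_at by 0.69 (SE 0.61, adjusted p = 0.540). Their high arrays were the same: Igha 1421653_a_at gave 1745.9, 831.1 and 1579.8 in Apoe-deficient replicates 3, 5 and 6, 15.8 in replicate 1, and 569.6 and 867.4 in wild-type replicates 4 and 5.

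IgG was represented by 4 Ighg3 probe sets, none of which passed the filter. Ighg3 1427503_at gave 45.9 to 2694.4 in the Apoe-deficient arrays with a median of 129, and 19.9, 17.4, 84.0, 82.9 and 66.4 in the wild-type arrays. Apoe-deficient replicate 6 (2694.4) and replicate 5 (527.3) were high, replicates 3 and 4 lay slightly above the wild-type arrays, and replicates 1 and 2 lay within their range. In the fit without the filter the difference was 1.94 (SE 0.81, limma adjusted p = 0.272). The other 3 Ighg3 probe sets stayed between 0.8 and 56.8 on all arrays.

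**Figure D2:**
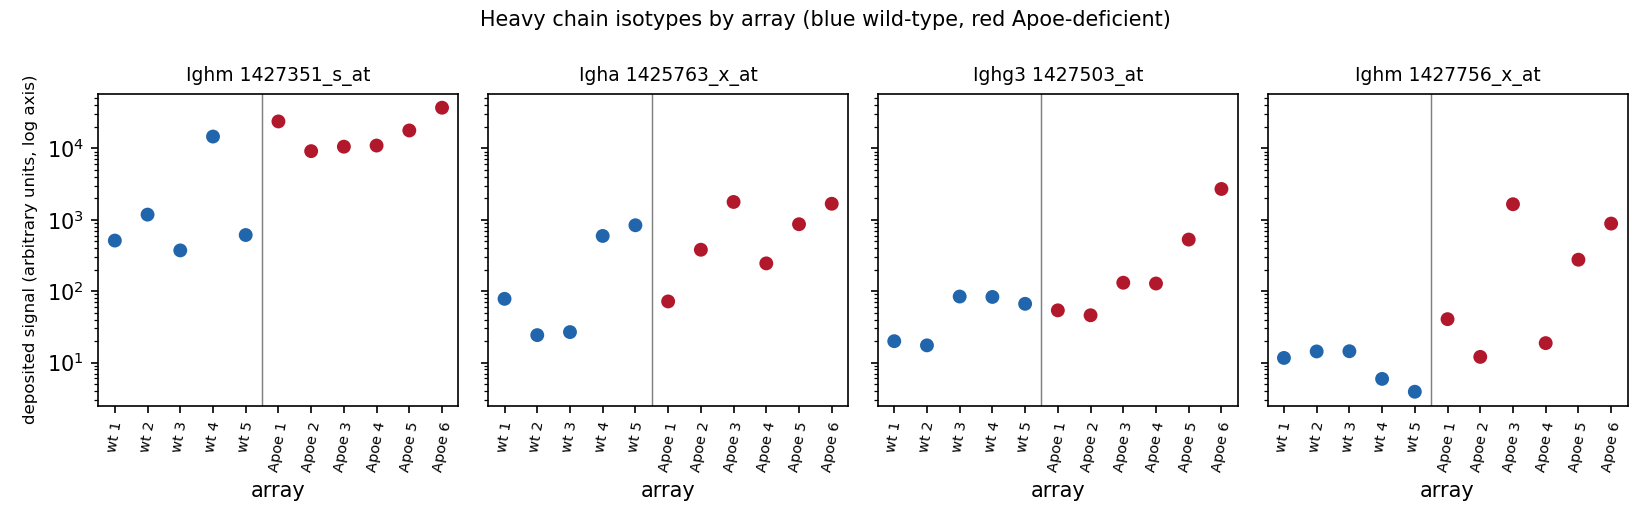
Deposited signal (log axis) of Ighm 1427351_s_at, Igha 1425763_x_at, Ighg3 1427503_at and Ighm 1427756_x_at in each of the 5 wild-type (blue) and 6 Apoe-deficient (red) arrays. Wild-type replicate 4 reaches 14603.6 for the first, wild-type replicates 4 and 5 reach 592.4 and 836.4 for Igha, and for Ighg3 the highest array is Apoe-deficient replicate 6 at 2694.4.

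Heavy chain variable segments were read by 5 probe sets, 4 of which also carry a constant region symbol, and none passed the filter. Ighv1-72/Ighm 1427851_x_at gave 83.2 to 679.8 in the Apoe-deficient arrays with a median of 104, and 38.8, 8.9, 38.7, 99.6 and 148.4 in the wild-type arrays. Apoe-deficient replicates 5 and 6 stood above all others, and the rest of the Apoe-deficient arrays overlapped the wild-type ones. The unfiltered difference was 1.61 (SE 0.61, limma adjusted p = 0.233). Ighv14-2/Ighg3/Ighm 1451947_at gave 6.8 to 53.6 with a median of 24.0 in the Apoe-deficient arrays and 33.0, 11.5, 5.7, 22.7 and 27.1 in the wild-type arrays, with full overlap. The other 3 were at 94.3 or less on every array.

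Kappa light chains held 7 of the 11 probe sets that rose. The 3 probe sets that include the constant region Igkc each carry the same 5 symbols (Igkv6-23, Igkv4-53, Igkv8-30, Igkj1 and Igkc) and end in _x_at, a suffix for probes shared with other transcripts, so they are not separate genes and cannot be assigned to 1 of the 5. Igkc 1427455_x_at gave 8875.9 to 40426.1 in the Apoe-deficient arrays with a median of 14480, and 348.1, 1529.5, 528.6, 10156.4 and 946.9 in the wild-type arrays. Wild-type replicate 4 lay inside the Apoe-deficient range and the other 4 wild-type arrays lay below it. The difference was 3.60 (SE 0.61, limma adjusted p = 0.00966) and passed the threshold in 11 of 11 fits without 1 array, and narrowly missed it with the control level block (adjusted p = 0.0519). Without wild-type replicate 4 it was 4.35 (limma adjusted p = 2.32e-05).

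Igkc 1427660_x_at gave 6781.1 to 20013.1 with a median of 8816 in the Apoe-deficient arrays, and 372.8, 1784.0, 729.3, 10583.7 and 1237.0 in the wild-type arrays. The overlap was again through wild-type replicate 4, which exceeded 3 of the 6 Apoe-deficient arrays. The difference was 2.76 (SE 0.60, limma adjusted p = 0.0348), and that of Igkc 1452417_x_at was 2.82 (SE 0.64, adjusted p = 0.0480). Both calls held in 2 of the 11 fits without 1 array and were lost with a block for the hybridisation control level (limma adjusted p = 0.102 for each); without wild-type replicate 4 the differences were 3.46 (adjusted p = 0.000264) and 3.57 (adjusted p = 0.000431).

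The probe sets annotated to the Igk locus as a whole differed among themselves in how wild-type replicate 4 stood. Igk 1425738_at had Apoe-deficient signals from 911.0 through a median of 3294 to 23138.2, and wild-type signals of 6.9, 5.9, 19.7, 26.0 and 18.9. Every Apoe-deficient array stood far above every wild-type array, and wild-type replicate 4 was at the level of the others. The difference was 7.08 (SE 0.58, limma adjusted p = 3.37e-05), the highest of the 56, and it held in 11 of 11 fits without 1 array. Its size depends on the constant added before the log, being 8.23 with 1 and 5.70 with 64, since the wild-type signals lie near the bottom of the scale.

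Igk 1452557_a_at gave 617.9 to 3408.9 with a median of 1058 in the Apoe-deficient arrays, and 146.8, 199.8, 194.6, 536.9 and 149.5 in the wild-type arrays. The groups did not overlap, with wild-type replicate 4 nearest to the Apoe-deficient arrays, and the difference was 2.39 (SE 0.42, limma adjusted p = 0.0108; 11 of 11 fits without 1 array). Without wild-type replicate 4 it was 2.70 (limma adjusted p = 0.00347). Igk 1426178_at, below the filter, ran from 50.7 to 418.2 against 7.6 to 40.2, also without overlap, and rose by 2.36 in the unfiltered fit (SE 0.41, limma adjusted p = 0.0181). Igk 1427757_at was high in Apoe-deficient replicates 3, 5 and 6 (112.8, 269.9 and 117.4) and at 7.1 or less in the other 3, while the wild-type arrays reached 66.6.

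Among the 22 kappa variable probe sets, 6 passed the filter and 2 rose. Both of these end in _x_at, the suffix for probes shared with other transcripts, as do 5 of the 11 called members. Their rise therefore cannot be assigned with certainty to the segment named. Igkv8-30 is also a symbol of the 3 Igkc probe sets, so 1452463_x_at may not be a separate reading. Igkv8-30 1452463_x_at gave 2937.2 to 25123.8 in the Apoe-deficient arrays with a median of 12580, and 90.3, 524.2, 158.3, 10999.1 and 182.8 in the wild-type arrays. Wild-type replicate 4 exceeded 3 of the 6 Apoe-deficient arrays and the other wild-type arrays were far below all 6. The difference was 4.58 (SE 0.93, limma adjusted p = 0.0275), held in 5 of the 11 fits without 1 array and not with the control level block (adjusted p = 0.101), and was 5.71 without wild-type replicate 4 (adjusted p = 7.13e-05).

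Igkv9-120 1460423_x_at ran from 260.7 through 569 to 1770.4 in the Apoe-deficient arrays, and the wild-type arrays gave 76.7, 129.6, 50.8, 38.5 and 47.4. The groups did not overlap and wild-type replicate 4 was the lowest of all. The difference was 3.03 (SE 0.46, limma adjusted p = 0.00484), held in 11 of 11 fits without 1 array. A second probe set of the same segment, Igkv9-120 1452536_s_at, differed by 0.83 (SE 0.40, adjusted p = 0.268) and was high in Apoe-deficient replicate 5 (1061.2). The remaining probe set of the segment, Igkv9-120 1427750_at, lay below the filter and pointed the other way, at 2.9 to 35.8 in the Apoe-deficient and 9.9 to 64.2 in the wild-type arrays (unfiltered difference -0.58, SE 0.32, limma adjusted p = 0.396).

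The other kappa variable probe sets were high in differing arrays. Igkv6-20 1451962_at gave 5.2 to 1464.1 with a median of 364 in the Apoe-deficient arrays and 15.8, 11.8, 5.4, 133.1 and 3.4 in the wild-type arrays. Apoe-deficient replicate 4 was among the lowest of all arrays, and the other 5 Apoe-deficient arrays exceeded every wild-type array; the difference was 3.18 (SE 0.90, limma adjusted p = 0.0977) and passed the threshold in 2 of the 11 fits without 1 array, those without Apoe-deficient replicate 4 (3.96) and without wild-type replicate 4 (3.73). The probe sets shared by Igkv6-14, Igkv6-23 and Igkv8-19 differed by 2.04 (1427577_x_at, SE 0.55, adjusted p = 0.0861) and 0.89 (1451965_at, SE 0.38, adjusted p = 0.224). Igkv4-55/Igkv4-68 1426200_at, below the filter, had its highest signals in Apoe-deficient replicate 6 (1188.3) and wild-type replicate 4 (821.0), against 8.8 to 74.3 in the other wild-type arrays. Igkv14-111 1451951_at was highest in Apoe-deficient replicates 1 (465.6) and 6 (432.3) and wild-type replicate 2 (227.9). The segments Igkv1-117, Igkv1-135 and Igk-V21 stayed at 35.0 or less on every array.

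Lambda light chains were read by 3 probe sets, all at low signal in the wild-type arrays. Iglv1 1430523_s_at ran from 183.4 through 824 to 3885.7 in the Apoe-deficient arrays, and gave 28.6, 41.4, 45.9, 48.3 and 16.4 in the wild-type arrays. Every Apoe-deficient array was above every wild-type array, and wild-type replicate 4 was not set apart from the other wild-type arrays. The difference was 3.84 (SE 0.62, limma adjusted p = 0.00731) and held in 11 of 11 fits without 1 array.

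The second, Iglc1/Iglv1 1424931_s_at, includes the constant region. It ran from 41.9 through 389 to 4472.8 in the Apoe-deficient arrays and gave 4.3, 12.8, 3.0, 15.8 and 18.6 in the wild-type arrays, again without overlap. Apoe-deficient replicates 3, 5 and 6 were at 658.0 or more and the other 3 at 119.8 or less. It did not pass the filter, and its unfiltered difference of 3.79 missed the threshold (SE 0.92, limma adjusted p = 0.0835). Iglv1 1427292_at was raised in Apoe-deficient replicates 5 (110.0) and 6 (182.7) and lay at 25.8 or less elsewhere.

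The J chain was read by 1 probe set, Jchain 1424305_at. Its Apoe-deficient signal ran from 2658.7 through a median of 4174 to 26860.7, and the wild-type replicates gave 86.0, 182.4, 86.7, 2047.4 and 326.0. The groups did not overlap, with wild-type replicate 4 just below the lowest Apoe-deficient array and Apoe-deficient replicate 6 the highest. The difference was 4.33 (SE 0.70, limma adjusted p = 0.00731), it was 5.05 without wild-type replicate 4 (adjusted p = 0.000242), and it held in 11 of 11 fits without 1 array.

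**Figure D3:**
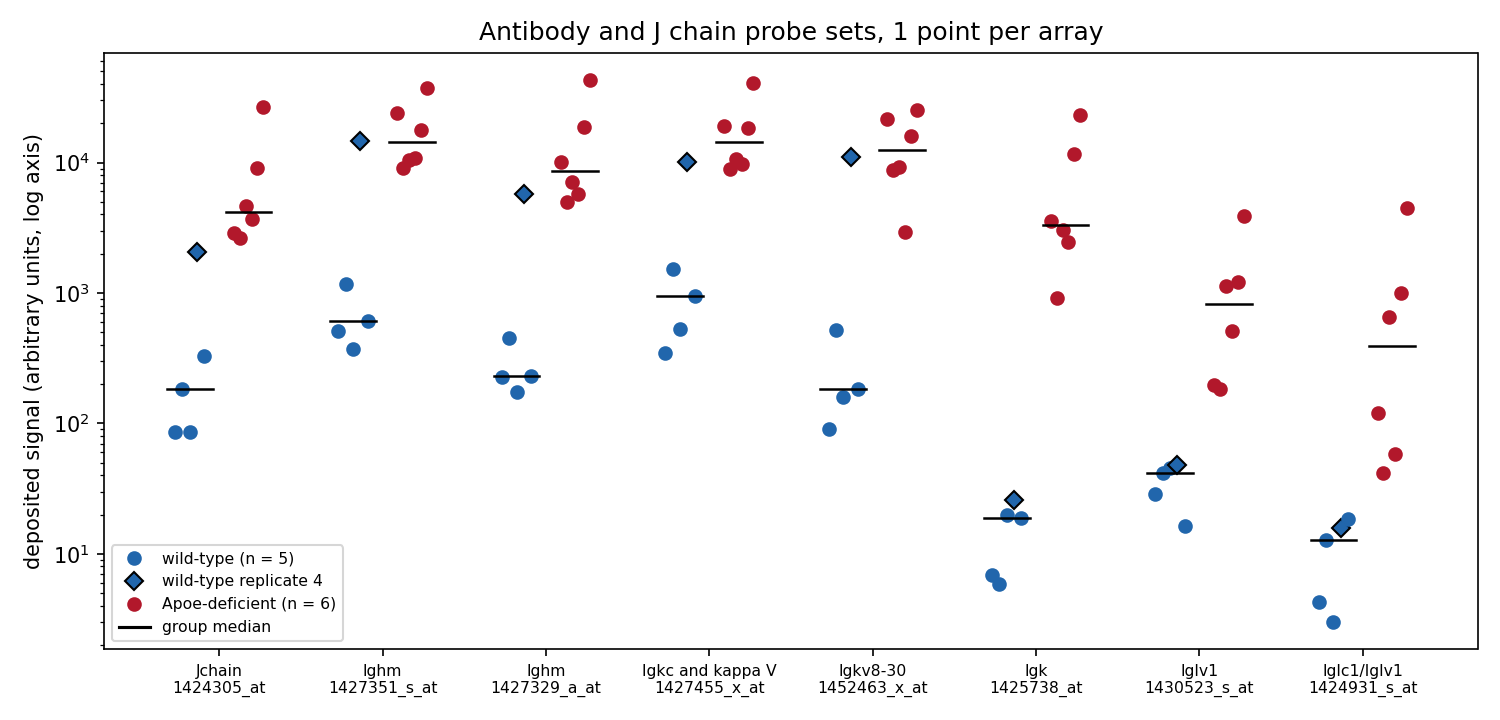
Deposited signal (log axis) of 8 antibody and J chain probe sets, 1 point per array, with the group median as a line, wild-type in blue (n = 5, replicate 4 as a diamond) and Apoe-deficient in red (n = 6). The diamond lies in the red range for both Ighm probe sets, Igkc and Igkv8-30, just below it for Jchain (2047.4 against 2658.7), and with the other wild-type arrays for Igk 1425738_at (26.0), Iglv1 (48.3) and Iglc1/Iglv1 (15.8).

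**Figure D4:**
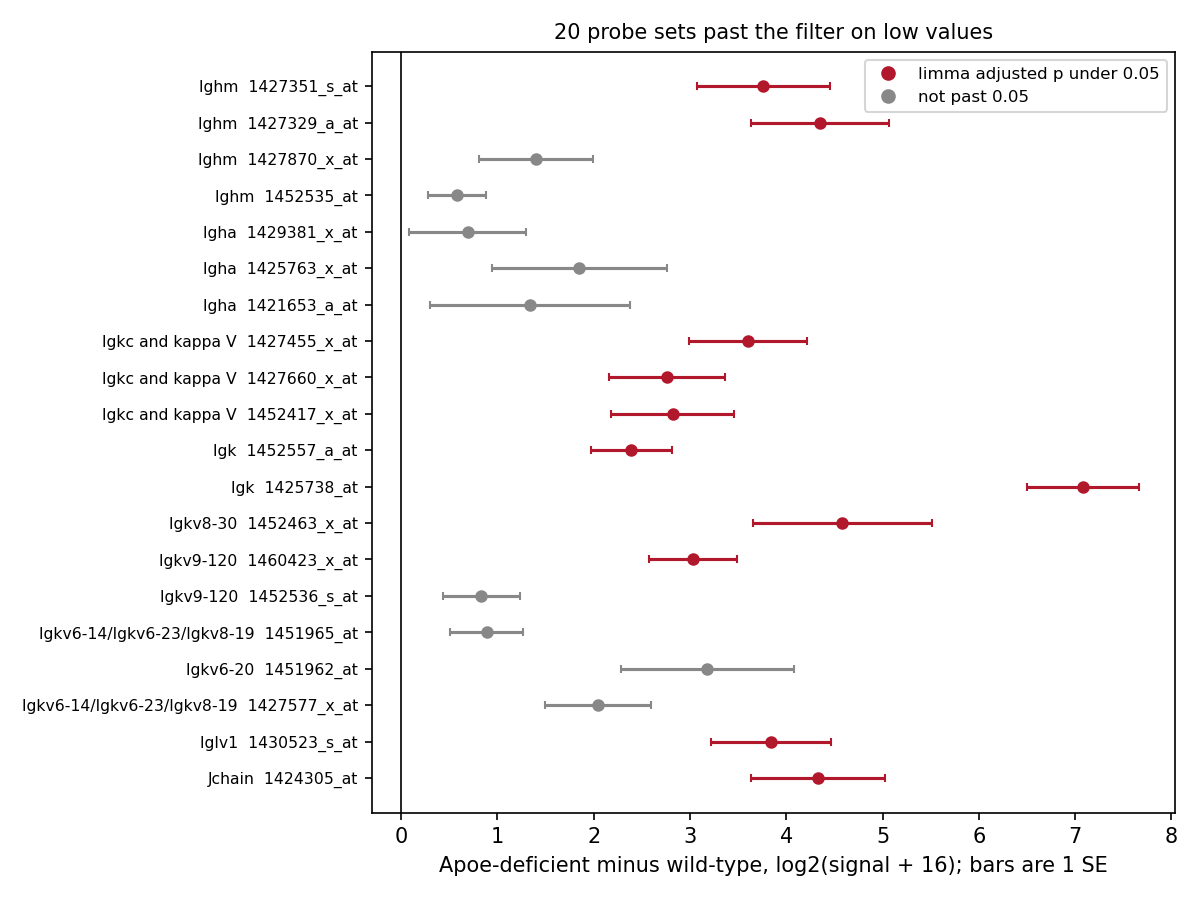
Difference between Apoe-deficient and wild-type arrays on the log2(signal + 16) scale, with bars of 1 SE, for the 20 antibody and J chain probe sets past the filter. The 11 in red had a limma adjusted p under 0.05, from 2.39 to 7.08, and the 3 Igha probe sets are among the 9 in grey.

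The chain classes were then set against each other within each array, with the probe set of highest mean over all arrays standing for each class, by exact two-sided permutation tests over the 462 splits of the arrays (smallest possible p 0.0022) adjusted over 6 pairs. The probe sets used were Ighm 1427351_s_at, kappa 1427455_x_at, lambda 1430523_s_at, Igha 1429381_x_at, Ighg3 1427503_at and Jchain 1424305_at. Each result holds for these and not for every probe set of a class. The difference of Ighm was larger than that of kappa by 0.16 (SE 0.27, exact permutation p = 0.53, adjusted p = 0.80). Without wild-type replicate 4 this was 0.32 (exact permutation test, adjusted p = 0.40). Within an array the Ighm value minus the kappa value stayed between -0.08 and 0.27 in the Apoe-deficient arrays and between -0.65 and 0.56 in the wild-type arrays. Wild-type replicate 4, in which both were high (log2 values 13.84 and 13.28), gave the upper wild-type bound of 0.56. It thus lay above the Apoe-deficient range.

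Neither Ighm nor kappa was shown to differ from lambda in its change, and the sign of both comparisons turned under other settings, such as a constant of 64 (0.68 and 0.53) and the fit without wild-type replicate 4 (0.70 and 0.38). Ighm minus lambda was -0.08 (SE 1.04, exact permutation p = 0.94, adjusted p = 0.94) and kappa minus lambda was -0.24 (SE 0.92, exact permutation p = 0.80, adjusted p = 0.94). The standard errors leave a wide range for both. In the unfiltered fit the kappa probe sets ran from -0.58 to 7.08 and the lambda probe sets from 0.86 to 3.84. The comparison therefore depends on the probe set that stands for each class. Ighm minus Jchain was -0.56 (SE 0.50, exact permutation p = 0.29, adjusted p = 0.58).

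Between isotypes, Ighm 1427351_s_at differed between the genotypes by 3.07 more than Igha 1429381_x_at (SE 1.02, exact permutation p = 0.015, adjusted p = 0.091). Without wild-type replicate 4 this was 3.77 with an adjusted p of 0.029 by the exact permutation test, so that array decides on which side of the threshold the pair falls. The Igha probe set used has the smallest of the 3 Igha differences (0.69, beside 1.34 and 1.85). The pair was not tested with the others, so the gap holds for this probe set only. Ighm exceeded Ighg3 by 1.83 (SE 1.16, exact permutation p = 0.14, adjusted p = 0.43).

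The Apoe-deficient arrays differed among themselves in which antibody genes they showed. Of 29 probe sets with a signal over 500 on at least 1 array, a level set after seeing the data, 19 were highest in Apoe-deficient replicate 6, 7 in replicate 3 and 3 in replicate 5. Replicates 3, 5 and 6 were the 3 highest Apoe-deficient arrays for 14 of the 29, among them all 3 Igha probe sets, Jchain, Ighg3 1427503_at and both lambda probe sets in the 29. Replicates 1, 5 and 6 were the 3 highest for 9, and in the other cases replicate 2 or 4 joined 5 and 6. For 11 of the 29, wild-type replicate 4 was the highest wild-type array and lay within the Apoe-deficient range: 3 Ighm, 3 Igkc and 5 kappa variable probe sets. In 1 of these, Ighm 1425324_x_at, all wild-type signals were near the bottom of the scale (14.5 in replicate 4), where their order carries no meaning.

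The level of the hybridisation controls moved in part with the groups, since all 3 arrays of low level were Apoe-deficient. With the level as a block, 7 of the 20 members passed the threshold and 65 of all probe sets did. Igk 1425738_at then differed by 8.39 (limma adjusted p = 8.61e-06), Jchain by 5.19 (adjusted p = 0.0271), Ighm 1427329_a_at by 5.21 (adjusted p = 0.0332) and Iglv1 1430523_s_at by 4.42 (adjusted p = 0.0377), while 5 of the 11 lost their call: Igkc 1427455_x_at (4.10, adjusted p = 0.0519), Ighm 1427351_s_at (4.16, adjusted p = 0.101), Igkv8-30 1452463_x_at (5.44, adjusted p = 0.101), Igkc 1427660_x_at (3.33, adjusted p = 0.102) and Igkc 1452417_x_at (3.53, adjusted p = 0.102). The probe set 1427577_x_at, shared by Igkv6-14, Igkv6-23 and Igkv8-19, passed the threshold there (3.08, limma adjusted p = 0.0422). Without the 3 low level arrays, 13 of the 56 passed the filter, which then asked for 5 of 8 arrays. Of the 11 called members, 8 were among the 13. Igk 1425738_at, Iglv1 1430523_s_at and Igkv9-120 1460423_x_at had too few wild-type arrays above the filter's level to be fitted there. Their calls were therefore not tested in that setting. Of the 13, 1 passed the threshold, Igk 1452557_a_at (3.06, limma adjusted p = 0.0196). Jchain was at 4.97 (limma adjusted p = 0.0592) and Ighm 1427329_a_at at 5.18 (adjusted p = 0.0553). Among the 4 arrays of high level alone, 2 of each genotype, 1 of the 20 members and 2 of all 13863 probe sets passed the threshold. The member was Ighm 1427351_s_at (5.12, limma adjusted p = 0.0282). Igk 1425738_at was at 8.63 (adjusted p = 0.0623), Igkc 1427455_x_at at 5.05 (adjusted p = 0.133), Jchain at 5.87 (adjusted p = 0.207), Iglv1 1430523_s_at at 4.27 (adjusted p = 0.482) and Igkv9-120 1460423_x_at at 2.50 (adjusted p = 0.489).

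Genes of the B lineage and of plasma cells other than the antibodies, each read by its probe set of highest mean, did not pass the threshold. Of 15 plasma cell genes on the array, 12 passed the filter and 0 passed the adjusted threshold in limma, with a median difference of 0.38. At an unadjusted limma p under 0.05, 5 were higher and 0 lower. The share of all probe sets at that unadjusted p was not counted, here or for the lists below. Over all 15, 13 were above 0 in the unfiltered fit, with a median of 0.43. The 3 of highest mean were Xbp1, the transcription factor of secretory cells (0.25, SE 0.14, limma adjusted p = 0.353), Sec11c, a signal peptidase subunit (0.43, SE 0.11, adjusted p = 0.0659), and Txndc5, an oxidoreductase of the endoplasmic reticulum (0.61, SE 0.21, adjusted p = 0.159). Chosen after their values were seen, Ell2, an elongation factor that favours the secreted form of heavy chains, differed by 0.86 (SE 0.20, limma adjusted p = 0.0505). Pou2af1, the coactivator that acts with octamer-binding factors, differed by 1.94 (SE 0.53, adjusted p = 0.0910).

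Pou2af1 gave 98.2 to 1117.8 in the Apoe-deficient arrays with a median of 136, and 21.7, 69.4, 34.2, 98.0 and 45.0 in the wild-type arrays. All Apoe-deficient arrays lay above all wild-type arrays, by a narrow margin at wild-type replicate 4, and replicates 6 and 5 were the highest, as for many antibody probe sets. Txndc5 was the other of the 15 plasma cell genes with every Apoe-deficient array above every wild-type array. The summed signal of the plasma cell genes, much of it Xbp1, was 8952 to 18930 in the Apoe-deficient and 8839 to 9255 in the wild-type arrays. Without Xbp1 it was 4951 to 10280 and 4034 to 4561, which do not overlap, with 4479 in wild-type replicate 4. That replicate was the highest wild-type array for Pou2af1 (98.0) and Sec11c (1790.2). It was the lowest wild-type array for Prdm1 (68.2), Irf4 (64.2), Edem1 (428.0) and Eaf2 (85.2). These genes were picked for this after their values were seen.

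Of 14 B lineage genes, 5 passed the filter and 0 passed the threshold (limma, 1 higher at an unadjusted p under 0.05), with a median difference of 0.16. Over all 14, the 9 below the filter included, 11 were above 0 in the unfiltered fit, with a median of 0.38. The 3 of highest mean were Ebf1, a factor of early B cells (0.03, SE 0.21, limma adjusted p = 0.952), Cd22, an inhibitory receptor of B cells (0.16, SE 0.21, adjusted p = 0.708), and Blk, a kinase of the B cell receptor (-0.19, SE 0.20, adjusted p = 0.609). Ms4a1, which encodes CD20 and is lost in plasma cells, was named after its values were seen: it gave 59.2 to 362.3 in the Apoe-deficient arrays, with replicates 5 and 6 highest, and 75.0 to 146.0 in the wild-type arrays (0.39, SE 0.36, adjusted p = 0.555). Also named after their values were seen, Blnk, an adaptor of the B cell receptor, gave 111.7 to 386.6 in the Apoe-deficient and 82.1 to 104.2 in the wild-type arrays (0.91, SE 0.25, limma adjusted p = 0.0943), and Pax5, a B cell identity factor that plasma cells switch off, gave 34.3 to 88.9 and 10.1 to 33.3, below the filter. Those 2 of the 14 had no overlap between the groups. Cd79b, a B cell receptor subunit below the filter, was at 417.2 and 496.9 in Apoe-deficient replicates 5 and 6 and at 100.4 or less in all other arrays. The summed signal of the B lineage genes was 1161 to 2920 in the Apoe-deficient and 1143 to 1548 in the wild-type arrays, lowest in wild-type replicate 4 (1143). Without Ebf1, the brightest of them, it was 941 to 2740 and 970 to 1281. Wild-type replicate 4 was then at 983 and no longer the lowest.

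**Figure D5:**
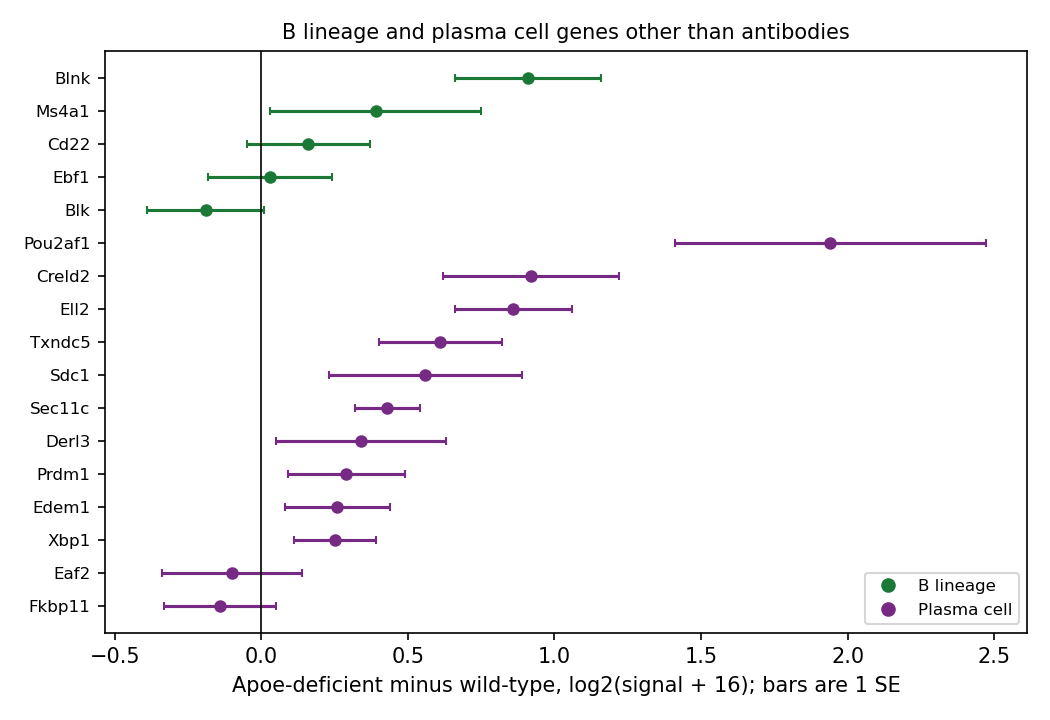
Difference between Apoe-deficient and wild-type arrays (log2(signal + 16), bars of 1 SE) for the 5 B lineage and 12 plasma cell genes past the filter. No gene passed the limma threshold; Pou2af1 (1.94) and Creld2 (0.92) lie farthest to the right among plasma cell genes, and Blnk (0.91) among B lineage genes.

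Of 7 genes for recombination, switching and surrogate light chains, 2 passed the filter and 0 passed the threshold, with 1 lower at an unadjusted p under 0.05: Vpreb3 (0.01, SE 0.18, limma adjusted p = 0.986) and Igll1 (-0.64, SE 0.28, adjusted p = 0.231). Rag1 and Rag2, the recombinase of developing lymphocytes, were at 24.9 or less on every array. Of 11 antibody receptors and transport genes, 7 passed the filter and 0 passed the threshold, with 3 higher at an unadjusted limma p under 0.05. The 3 of highest mean were Fcgr2b, the inhibitory receptor for IgG (0.50, SE 0.15, limma adjusted p = 0.122), Fcgrt, the recycling receptor for IgG (0.06, SE 0.15, adjusted p = 0.838), and Trim21, a cytosolic antibody receptor (-0.01, SE 0.11, adjusted p = 0.967). The summed signal of the 11 was 3398 to 4884 in the Apoe-deficient and 2836 to 3216 in the wild-type arrays, without overlap. Without Fcgr2b, the brightest, it was 2224 to 3246 and 2168 to 2424, with overlap. Fcer1g was the 1 gene of the 11 without overlap, which held for 1.15% of all probe sets. Of 13 genes for B cell recruitment and survival, 5 passed the filter and 0 passed the threshold, with 1 higher at an unadjusted limma p under 0.05. Their 3 of highest mean were the chemokine receptor Cxcr4 (0.17, SE 0.18, adjusted p = 0.614), its ligand Cxcl12, which holds plasma cells in their niches (1.25, SE 0.30, limma adjusted p = 0.0579), and the lymphotoxin receptor Ltbr (-0.21, SE 0.15, adjusted p = 0.447). Cxcl12, the 1 of the 13 without overlap, gave 830.5 to 3224.0 in the Apoe-deficient arrays and at most 725.4 in the wild-type arrays. The summed signal of the 13 was 2870 to 6817 and 2554 to 3229, with overlap.

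Markers of other cells that a cut ganglion could hold were read beside these results. The summed signal of 11 T cell genes was 1878 to 4715 in the Apoe-deficient and 1365 to 9933 in the wild-type arrays, most of it Thy1, which neurons also express; without Thy1 it was 464 to 1416 and 501 to 699. Thy1 and Lat passed the filter, and 0 passed the threshold or an unadjusted limma p under 0.05. Of the 9 T cell genes below the filter, Cd3g, a T cell receptor subunit named after its values were seen, gave 58.1 to 209.8 in the Apoe-deficient and 20.5 to 51.9 in the wild-type arrays, without overlap. Cd3d, also named after its values were seen, was highest in Apoe-deficient replicates 5 (198.3) and 6 (98.5) and at 25.2 or less in the wild-type arrays. Many antibody probe sets were high in those Apoe-deficient arrays. Cd3e, of the same receptor, did not share this pattern. It gave 42.4 to 124.7 in the Apoe-deficient and 28.6 to 176.8 in the wild-type arrays, with 70.5 in Apoe-deficient replicate 6. Cd8a and Cd5 also overlapped between the groups. Over all 11 T cell genes, 9 were above 0 in the unfiltered fit, with a median of 0.34. The 3 lymph node stroma genes summed to 292 to 640 and 314 to 473, and the 7 bone marrow and blood genes to 237 to 451 and 308 to 810, with Camp, a granulocyte gene, at 8.2 or less on every array. White adipocyte genes summed to 3261 to 24990 and 10060 to 31510, sympathetic neuron genes to 37010 to 75750 and 52550 to 78910, and glial genes to 11790 to 31780 and 13330 to 22010. The 3 brown adipocyte genes summed to 517 to 2568 and 1449 to 6074 and all lay below 0, with a median of -1.23: Cox8b, a mitochondrial subunit (-1.66, SE 0.44, limma adjusted p = 0.0774), Cidea, a lipid droplet protein (-1.23, SE 0.38, adjusted p = 0.122), and Ucp1, the uncoupling protein (-0.78, SE 0.63, adjusted p = 0.501), 2 of the 3 at an unadjusted p under 0.05. At that unadjusted limma p, 2 sympathetic neuron genes were higher and 1 lower, and 1 bone marrow and blood gene was lower. The summed ranges of both genotypes overlapped in each of these lists, and 0 of the genes fitted passed the adjusted threshold. Their part in the antibody differences was not tested.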

How the data were processed

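Total RNA of 11 laser-captured ganglion samples was measured on 1 array each. The deposited values are probe set signals, that is, linear intensity values made by the authors with GCOS 1.4, per the submitters' processing notes. How GCOS computed a signal, and its detection calls: not given in the sources used here. The 2% trimmed mean was 500.2 on every array, so scaling to a common mean had been applied. Symbols came from the platform annotation; 28 of the 29 matched the RefSeq table of GRCm38.p6, used for names, chromosomes and the promoter.

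After 64 controls were removed, log2(signal + 16) was quantile normalised over 11 arrays. A probe set was fitted where it exceeded the 40th percentile (log2 value 6.98) in at least 5 arrays. limma 3.58.1 in R 4.3.3 (intensity trend, two-sided) gave differences, with Benjamini-Hochberg adjustment at 0.05; the scale understates changes of low probe sets, and the number of arrays limits precision. Fits were tested on simulated data. Figures used matplotlib 3.10.9 and Python 3.11.15. Members and lists were chosen with earlier results of these data known. Members past the filter, and the 3 past-filter genes of highest mean per list, were named by rule. Alternatives covered scaling, constant, filter, probe set rule, variance model, weights, blocks and each array left out. Replicate numbers did not pair the samples and were not used.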

Additional observations from a re-analysis of the deposited data

Results flagged for a closer look

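In each genotype, the highest and lowest array of the 20 probe sets past the filter was checked against its nearest neighbour, giving 40 groups, of which 5 had an array far from the others; chance gives about 1 in 20. Values are quantile-normalised log2(signal + 16). Wild-type replicate 4 was far above the other wild-type arrays in 3 cases. It stood at 12.43 for Ighm 1427329_a_at, with the next wild-type array at 8.89. It stood at 9.15 for Igk 1452557_a_at (next 7.75) and at 7.33 for Igkv6-20 1451962_at (next 4.90). Wild-type replicate 2 stood at 8.30 for Ighm 1452535_at, with the next at 7.17. Apoe-deficient replicate 4 was low for Igkv8-30 1452463_x_at, at 11.51 with the next at 13.45. The causes were not tested.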

How the results depend on the processing

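Of 448 recomputed differences of the 20 probe sets past the filter, 384 kept direction and side of the threshold, 60 kept direction and lost it, 4 kept direction and passed it, and 0 reversed. The 11 members called became 6 with 1 probe set a gene (8 members fitted) and 7 with robust variance estimates. They became 7 with a block for the level of the hybridisation controls. When the arrays of low level were left out, 13 members were fitted, with 8 of the 11 among them, and 1 was called. The range without 1 array was 7 (wild-type replicate 1) to 12 (wild-type replicate 4). The 187 probe sets called in all became 1005 with array weights, 65 with the level block and 38 when the low level was left out, and 82 to 502 without 1 array, a change of over 1.5 times for Apoe-deficient replicates 1 to 4 and for each wild-type replicate. Of the 11 members called, 7 were called in every fit without 1 array. The count of members without overlap went from 7 to 16 without wild-type replicate 4, an alternative chosen after seeing the data.

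Ighm minus lambda turned to 0.68 with a constant of 64 and kappa minus lambda to 0.53; without 1 array they ran from -0.54 to 0.70 and from -0.62 to 0.38. Ighm minus Igha, with Igha read by 1429381_x_at, ran from 2.49 to 3.77 and passed the threshold without wild-type replicate 4. Samples of the same replicate number did not deviate together (correlations -0.178 to 0.227, 2 of 11 arrays nearest to their own number). With the replicate block 8 members and 226 probe sets were called, Ighm minus lambda was 0.35 and kappa minus lambda 0.16. No wild-type array has the number 6, so this block takes Apoe-deficient replicate 6 out of the comparison. The fits without that array gave the same 0.35 and 0.16. The causes were not tested. No detection calls were used, so signals near the bottom of the scale carry no order.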
